A study of Mus musculus with 33 samples.

Results

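The mouse mitochondrial genome carries 37 genes, and all 37 were found among the 48795 genes of the deposited table by the "mt-" that opens their symbols. They were 13 protein genes, 2 ribosomal RNA genes and 22 transfer RNA genes. Their RNA was measured in 33 tumours of 20 mice, grown under the skin of both flanks of FVB males from Myc-CaP, an established mouse prostate cancer line that came from a tumour with a prostate-targeted human MYC transgene. Mice were treated for 3 weeks from a volume of 50 mm3. ESK981, an oral inhibitor of several kinases and of the lipid kinase PIKfyve, or its vehicle was given by gavage on 5 days per week, with 15 mg of drug per kg. Anti-PD-1 antibody, which blocks an inhibitory receptor of T cells, or isotype antibody was given into the abdominal cavity, 200 µg to each mouse 3 times weekly. By the labels the tumours fall into 4 groups, and each group held 5 mice. Vehicle mice gave 10 tumours, ESK981 mice 8, mice on both agents (below, the combination) 8 and mice on the antibody alone 7. Which control agent each single-treatment group received is not spelled out in the labels. Tumours are named by a mouse number within the group and by flank (L or R), and these numbers pair nothing across groups.

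Mitochondrial DNA is copied into RNA as long transcripts that start from both strands and are cut apart, mostly at the transfer RNAs, into ribosomal, messenger and transfer RNAs. The messengers encode core subunits of the respiratory chain and of ATP synthase, and all other parts of these complexes come from nuclear genes. The genes annotated on the plus strand, which are copied from the heavy strand, were 12 protein genes, both ribosomal RNA genes and 14 transfer RNA genes. The genes annotated on the minus strand, which are copied from the light strand, were mt-Nd6 and 8 transfer RNA genes. The libraries were made from total RNA after removal of ribosomal RNA with a RiboErase kit, so levels of ribosomal RNA in them depend on that removal. Values are FPKM, fragment counts divided by the length of a gene's exons and by the library total.

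mt-Nd5 and mt-Nd6 lie tail to tail on opposite strands, which is why their ratio was used to compare the strands within a library. The last 40 bases of each gene are given with the 14 bases in which they overlap in capitals, at chrM:13526-13565 on the plus strand for mt-Nd5 and at chrM:13552-13591 on the minus strand for mt-Nd6 (GRCm38, GENCODE M21).
mt-Nd5: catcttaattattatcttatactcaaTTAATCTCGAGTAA
mt-Nd6: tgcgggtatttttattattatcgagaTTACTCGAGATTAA

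The 3 transfer RNA genes with at least 10 fragments in the median tumour carry tryptophan, proline and methionine, and are given whole with the anticodon in capitals. mt-Tw lies at chrM:4950-5016 on the plus strand, mt-Tp at chrM:15356-15422 on the minus strand and mt-Tm at chrM:3845-3913 on the plus strand.
mt-Tw: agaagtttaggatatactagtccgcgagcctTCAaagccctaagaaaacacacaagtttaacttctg
mt-Tp: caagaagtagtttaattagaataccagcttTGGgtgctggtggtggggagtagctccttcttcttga
mt-Tm: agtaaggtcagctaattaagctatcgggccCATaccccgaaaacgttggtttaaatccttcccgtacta

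Part of the mitochondrial genome has a near-identical copy in the nuclear genome, on the minus strand of chromosome 1, annotated as pseudogenes. The first 60 bases of mt-Co2 (chrM:7013-7072) and of its copy Gm28661 (chr1:24615506-24615565) are given because they are the same letter for letter. The first 23 bases of mt-Nd3 (chrM:9459-9481) and of its copy Gm28438 (chr1:24613097-24613119) hold the one substitution between the aligned parts of that pair, T3C, counted from the first base of mt-Nd3 and given in capitals.
mt-Co2: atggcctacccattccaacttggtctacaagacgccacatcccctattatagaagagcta
Gm28661: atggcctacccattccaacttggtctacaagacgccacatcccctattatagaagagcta
mt-Nd3: atTaacctgtacactgttatctt
Gm28438: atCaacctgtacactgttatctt

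Libraries held 9.90e+06 to 1.84e+07 fragments in vehicle tumours and 1.13e+07 to 3.24e+07 in treated tumours. Flow cell, as read from the labels, followed the groups: 9 vehicle tumours were run on one flow cell, and vehicle 5R was run with all 23 treated tumours on another. For the difference between vehicle and treated tumours, flow cell and treatment can therefore be separated only through vehicle 5R. Comparisons among treated groups lie within 1 flow cell, where lane, also read from the labels, followed the groups. ESK981 tumours were in lanes 3 and 4, anti-PD-1 tumours in lane 6 and combination tumours in lane 5, except 1L in lane 4. Among treated groups, lane and treatment can hardly be told apart. Summed FPKM of 3 genes on ribosomal RNA sequence (Gm23935, Gm26917 and Gm42418), called ribosomal-RNA-like here, had a median of 174884 in vehicle, 28041 in ESK981, 35436 in combination and 64908 in anti-PD-1 tumours. As a check of the tissue, Krt8, a luminal keratin, was at 3.73 to 117 FPKM and the prostate transcription factor Hoxb13 at 2.09 to 5.48 over all tumours. The epithelial markers Krt18, Epcam and Cdh1 did not reach the detection filter used here, 5 or more tumours at 0.5 FPKM or above, and Epcam had a median of 0 in vehicle tumours. Vehicle 5R, combination 5R and anti-PD-1 4R stood apart from their groups in mitochondrial RNA, and results that rest on them are given with and without them. They were chosen on these same values, so calls made without them depend on that choice.

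The 37 genes together took a median of 2.73% of all fragments in vehicle tumours, with a lowest of 0.731% in tumour 1L and a highest of 11.5% in tumour 5R. In ESK981 tumours the lowest was 0.513% (3R), the median 0.852% and the highest 1.08% (1L). Combination tumours lay at 0.812% (1L), 1.46% and 2.47% (1R), and anti-PD-1 tumours at 0.931% (1R), 1.01% and 6.64% (4R). All vehicle tumours but 1L were above all ESK981 tumours, and the combination and anti-PD-1 groups overlapped both. Over mice the mean was 3.34% ± 2.25 (SD, n = 5) in vehicle, 0.844% ± 0.0928 in ESK981, 1.60% ± 0.296 in combination and 1.75% ± 1.22 in anti-PD-1. Without the 3 tumours that stood apart it was 2.48% ± 0.765 in vehicle (n = 5), 1.60% ± 0.342 in combination (n = 4) and 1.19% ± 0.422 in anti-PD-1 (n = 5). In bulk tissue, fewer mitochondria-rich cells and less mitochondrial RNA per cell cannot be told apart.

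**Figure D1:**
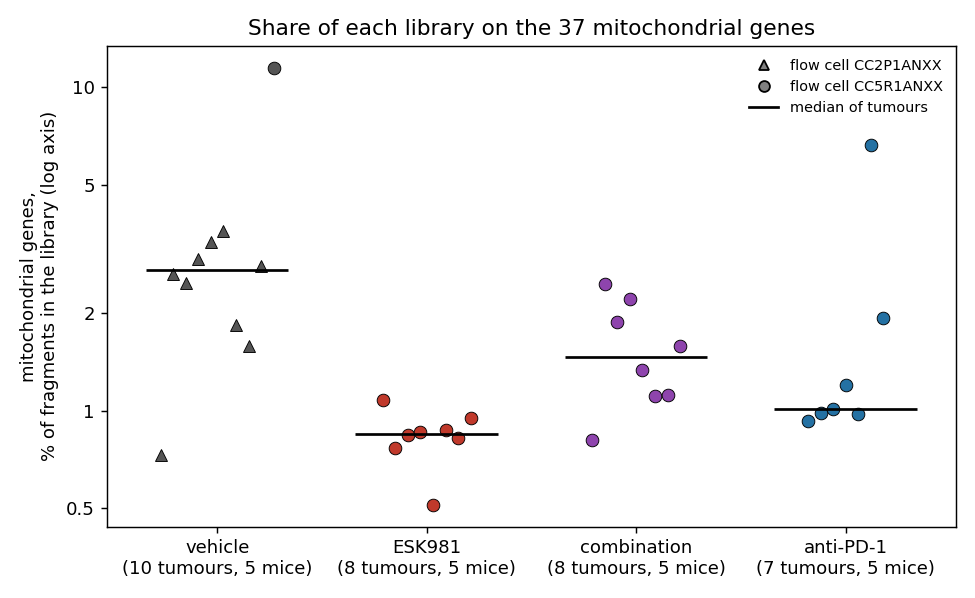
Share of each library's fragments that fell on the 37 mitochondrial genes (log axis), 1 point per tumour by group, with the median as a line and the flow cell as the marker shape. Vehicle 5R (11.5%) and anti-PD-1 4R (6.64%) lie far above the rest of their groups.

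Protein genes held most of the mitochondrial fragments in every tumour but combination 5R, where ribosomal RNA held 59.1%. Levels of the protein genes per length fell into 2 tiers. In the high tier, mt-Co1, the catalytic subunit of cytochrome c oxidase, had a median of 7365 FPKM in vehicle tumours. It was followed by mt-Cytb, the subunit of complex III made in the organelle (5198), and the complex I genes mt-Nd1 (2340), mt-Nd5 (1876), mt-Nd6 (1797), mt-Nd4 (1109) and mt-Nd2 (1006). In the low tier were mt-Co2 (146), mt-Co3 (41.5), the ATP synthase genes mt-Atp6 (35.2) and mt-Atp8 (24.9), and the complex I genes mt-Nd4l (19.9) and mt-Nd3 (10.3). The tiers did not overlap at the group medians in any of the 4 groups.

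Position relative to the nuclear copy went with the tiers. Of the low-tier genes, mt-Co2, mt-Co3, mt-Atp6, mt-Nd3 and mt-Nd4l had over 95% of their bases inside runs of 50 bases that occur identically in an annotated copy. mt-Atp8 lies between mt-Co2 and mt-Atp6 and had no annotated copy. In the high tier, mt-Nd1, mt-Nd2, mt-Nd5, mt-Nd6 and mt-Cytb had none of their bases in such runs, and the shares were 31.0% for mt-Co1 and 63.6% for mt-Nd4. The median of the 5 copied genes was 0.0177 of the median of 4 uncopied heavy-strand genes (mt-Nd1, mt-Nd2, mt-Nd5 and mt-Cytb) in vehicle tumours, 0.0167 in ESK981, 0.0185 in combination and 0.0384 in anti-PD-1. The copies themselves were counted at levels near those of the low-tier genes: the ratio of mt-Co2 to Gm28661 had a median of 1.92 over the 33 tumours, that of mt-Co3 to Gm28437 1.48, and that of mt-Atp6 to Gm10925 0.732. How fragments that match both places were counted is not given in the sources used here, so levels of the low tier, and of the copies, are uncertain, and so is any difference in level between the tiers.

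**Figure D2:**
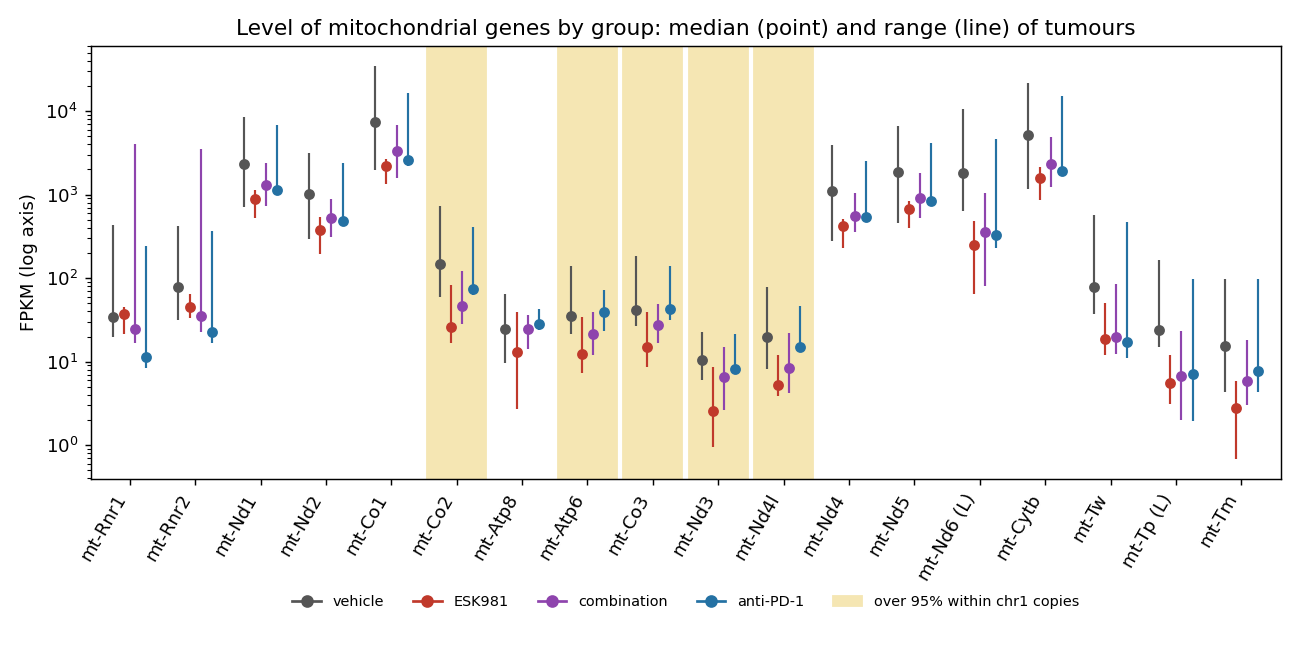
FPKM (log axis) of the 2 ribosomal RNA, 13 protein and 3 most counted transfer RNA genes, with the median (point) and the lowest to highest tumour (line) of each group. Genes on a shaded band have over 95% of their bases within copies on chromosome 1, (L) marks light-strand genes, and the ribosomal RNA lines of the combination reach 4084 and 3470 in 1 tumour.

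ESK981 tumours had lower levels of mitochondrial protein genes than vehicle tumours, for genes annotated on both strands and with and without a nuclear copy. mt-Nd6 alone stands for the light strand there. Because the use of strand in counting is not given, its fragments may include heavy-strand RNA. Of the 13 protein genes 12 fell and none rose, by 2.36-fold for mt-Atp6 to 10.9-fold for mt-Nd6. Neither ribosomal RNA gene passed the test, and 10 of the 16 transfer RNA genes tested fell. Of all 31 mitochondrial genes tested 22 were called lower, against 5.43% of all 15846 genes tested (limma on the mouse means of log2(FPKM + 0.5), adjusted p under 0.05). Of all genes 860 were lower and 1418 higher, a split that scaling moved to 2209 and 2207 with median-of-ratios factors and to 2840 and 481 with fragments outside mitochondrial and ribosomal-RNA-like genes, while 22 and 23 mitochondrial genes were lower under those scalings. Their median log2 fold change was −1.62, and that of all genes tested was 0.11. One of the 31, mt-Tl1, reached 0.5 FPKM in 3 treated tumours and passed the detection filter only with vehicle and treated tumours together. The 15 protein and ribosomal RNA genes were above 0.5 FPKM in every tumour.

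mt-Co1 was at 1997 (1L), 7365 and 35026 (5R) FPKM in vehicle tumours, as lowest, median and highest, and at 1332 (3R), 2210 and 2661 (1L) in ESK981 tumours. Vehicle 1L lay within the ESK981 range and the other 9 vehicle tumours above it. The log2 fold change was −1.84 ± 0.39 (SE, n = 5 mice in each group, limma adjusted p = 0.00703). mt-Co2, which encodes the oxidase subunit that binds cytochrome c, was at 59.4, 146 and 740 in vehicle and at 16.7, 26.4 and 82.1 in ESK981 tumours. It changed by −2.18 ± 0.37 (limma adjusted p = 0.00193), and ESK981 1L and 5R overlapped vehicle 1L. mt-Co3, the remaining oxidase gene, changed by −1.33 ± 0.32 (limma adjusted p = 0.0116).

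In complex III, mt-Cytb was at 1173 (1L), 5198 and 21781 (5R) FPKM in vehicle and at 865 (3R), 1561 and 2165 (1L) in ESK981 tumours. Again vehicle 1L was the one vehicle tumour inside the ESK981 range, and the log2 fold change was −1.60 ± 0.39 (limma adjusted p = 0.0122).

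All 7 complex I genes fell. mt-Nd5 was at 458, 1876 and 6572 FPKM in vehicle and at 397, 672 and 828 in ESK981 tumours, a change of −1.34 ± 0.35 (limma adjusted p = 0.0167). mt-Nd1, mt-Nd2 and mt-Nd4 changed by −1.41 ± 0.34, −1.37 ± 0.32 and −1.31 ± 0.33. The short copied genes mt-Nd3 and mt-Nd4l changed by −1.69 ± 0.34 and −1.73 ± 0.29. The median log2 fold change was −1.69 over the 5 copied and −1.39 over the 4 uncopied heavy-strand genes, all 9 of which fell. The 6 copies tested from a list of them fell as well, among them Gm28661 and Gm10925, with a median of −1.65, against 5.43% of all genes lower. Gm10222, the copy of mt-Nd4l, was not among these 6. It had a median of 14.2 FPKM in vehicle and 3.69 in ESK981 tumours.

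mt-Nd6, the light-strand gene of complex I, showed the widest difference of the protein genes. It was at 631 (1L), 1797 and 10714 (5R) FPKM in vehicle tumours and at 64.6 (1R), 252.3 and 479 (3L) in ESK981 tumours, with no overlap. The log2 fold change was −3.45 ± 0.60 (limma adjusted p = 0.00212). mt-Nd6, mt-Tp and mt-Ta were the 3 mitochondrial genes in which every ESK981 tumour was below every vehicle tumour, against 0.719% of all genes tested. For mt-Ta, vehicle 2L and 4R held 1 fragment, and so did ESK981 1L, 2R, 3R and 5L. Among these tumours its FPKM differed only by library size, so the lack of overlap in mt-Ta is not one of fragments. Without a stranded count, fragments of heavy-strand RNA that run across mt-Nd6 cannot be told from those of mt-Nd6 itself, and the use of strand in counting is not given in the sources used here.

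Of the ATP synthase genes, mt-Atp6 was at 21.6, 35.2 and 141 FPKM in vehicle and at 7.23, 12.2 and 34.4 in ESK981 tumours (−1.24 ± 0.30, limma adjusted p = 0.0124), and the ranges overlapped. mt-Atp8 was at 9.71, 24.9 and 64.9 in vehicle and at 2.71, 13.2 and 38.8 in ESK981 tumours, and it was the one protein gene that did not pass (−0.64 ± 0.31, limma adjusted p = 0.157).

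**Figure D3:**
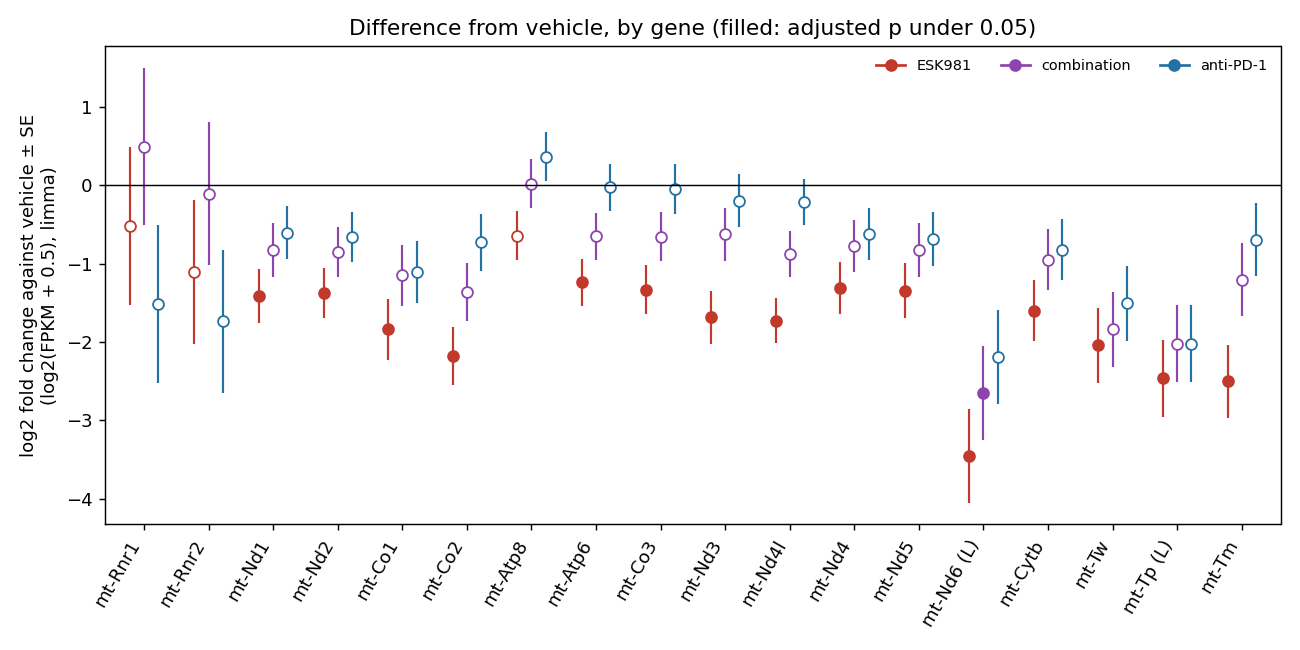
Log2 fold change against vehicle with its SE for the same genes in the 3 treated groups, on the log2(FPKM + 0.5) scale, filled where the limma adjusted p was under 0.05. mt-Nd6 lies lowest in each group (−3.45, −2.65 and −2.19), and the ribosomal RNA genes have the widest errors.

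The ESK981 result depended on the libraries and the filter as follows. Every protein gene was higher in vehicle 5R than in all 23 treated tumours of its own flow cell, and with flow cell as a term in limma, on single tumours, 29 of 31 mitochondrial genes were called lower in ESK981. In that fit 1.5% of all genes were lower and 38.4% higher, with a median log2 fold change of 0.62. In each comparison with vehicle and in the interaction, the estimate of that fit rests on a single vehicle tumour, the one with the most mitochondrial RNA. The fit took tumours of the same mouse as independent, unlike the fit on mouse means. Without the 3 tumours that stood apart (vehicle 5R, combination 5R and anti-PD-1 4R) the count was 23 of 30, against 10.9% of all genes lower, and mt-Co1 changed by −1.63 ± 0.28 (limma). With no filter on low values the count was 14, against 1.88% of all genes lower, and mt-Co1 no longer passed (−1.84 ± 0.74, limma adjusted p = 0.156). Other markers moved with the same comparison: 7 of 7 ribosomal-RNA-like and 7SL genes tested, 3 of 5 macrophage, 3 of 5 T cell and 3 of 4 fibroblast markers were lower in ESK981 tumours. In the fit on mouse means that gave these counts, 5.43% of all genes were lower. Summed macrophage markers ranged from 73.8 to 201 FPKM in vehicle and 47.6 to 91.2 in ESK981 tumours, T cell markers from 0.742 to 8.18 and 0.706 to 2.26, and fibroblast markers from 44.2 to 491 and 21.9 to 47.0. None of the cell type markers was at 0 in all tumours, and their part in the result was not tested. Skeletal muscle, a tissue rich in mitochondria, had summed markers of 0.658 to 246 in vehicle and 0.822 to 60.8 in ESK981 tumours, and 0 of its 8 markers were called.

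In the combination 1 of the 31 genes tested was lower than in vehicle, mt-Nd6, and none was higher, against 0.524% of all genes tested that were lower and 0.082% that were higher. In no mitochondrial gene was every combination tumour below every vehicle tumour, against 0.259% of all genes. mt-Nd6 was at 79.6 (4R), 355 and 1057 (1R) FPKM in combination tumours, and vehicle 1L (631) was the one vehicle tumour inside that range. The log2 fold change was −2.65 ± 0.60 (limma adjusted p = 0.0413). mt-Co1 was at 1595 (5R), 3318 and 6730 (1R) in combination tumours, with vehicle 1L, 4L and 4R inside that range, and differed by −1.15 ± 0.39 (limma adjusted p = 0.218). mt-Cytb differed by −0.95 ± 0.39 and mt-Atp8 by 0.02 ± 0.31, neither of which passed. Over the 31 genes the median log2 fold change was −0.88, beside 0.03 for all genes tested. The call for mt-Nd6 was lost without any one of 10 mice, namely vehicle mice 2, 3, 4 and 5, ESK981 mice 1 and 5, combination mice 1, 4 and 5 and anti-PD-1 mouse 3, with limma adjusted p between 0.05002 and 0.125. The count was 2 without vehicle mouse 1, anti-PD-1 mouse 1 or anti-PD-1 mouse 5, and 4 without combination mouse 2. With 1 mouse left out at a time, 53 to 140 of all genes were lower. The count was 4 with median-of-ratios scaling, 9 when scaled to fragments outside mitochondrial and ribosomal-RNA-like genes, 4 without the 3 tumours that stood apart and 27 with flow cell as a term. In the same order 3.25%, 8.39%, 1.55% and 1.28% of all genes were lower, and 3.39%, 0.436%, 7.72% and 32.6% higher. The fit with flow cell as a term again rests on vehicle 5R and took tumours of the same mouse as independent.

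Against vehicle, anti-PD-1 tumours had 0 of 31 mitochondrial genes called by limma, against 0.309% of all genes tested that were lower and 0.473% that were higher. An unadjusted limma p under 0.05 was found for 11 of the 31, against 2089 of all 15846 genes tested. mt-Nd6 was at 228 (1R), 329 and 4678 (4R) FPKM, a difference of −2.19 ± 0.60 (limma adjusted p = 0.0812). Of the anti-PD-1 tumours 5 were below all vehicle tumours, while 5L at 922 and 4R lay inside the vehicle range. In no mitochondrial gene was every anti-PD-1 tumour below every vehicle tumour, against 0.0316% of all genes. mt-Co1 was at 2229 (1R), 2564 and 16432 (4R), a difference of −1.11 ± 0.39 (limma adjusted p = 0.196). mt-Atp6 and mt-Co3 differed by −0.03 ± 0.30 and −0.05 ± 0.32. The median over the 31 genes was −0.69, beside 0.13 for all genes. Without the 3 tumours that stood apart 10 of 30 genes were called lower, against 1.83% of all genes lower and 9.46% higher. mt-Nd6 was among the 10 (−2.40 ± 0.55, limma adjusted p = 0.0119). Anti-PD-1 4R was left out because its mitochondrial RNA was high, so these calls depend on that choice. With flow cell as a term 26 were called lower, against 0.637% of all genes lower and 31.3% higher. That fit also rests on vehicle 5R and took tumours of the same mouse as independent. Leaving out vehicle mouse 1 or combination mouse 2 gave 1 call, combination mouse 5 or anti-PD-1 mouse 5 gave 2, and anti-PD-1 mouse 4 gave 3. With 1 mouse left out at a time, 16 to 113 of all genes were lower.

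Comparisons among the treated groups lie within 1 flow cell, but lane followed the groups there. Between combination and ESK981 the median log2 difference over the 31 genes was 0.60 (all genes −0.09). Limma called 0 of 31, against 0.0% of all genes, and 7 had an unadjusted p under 0.05, against 1226 of all 15846 genes tested. mt-Nd3 was at 0.953, 2.59 and 8.69 FPKM in ESK981 and at 2.64, 6.53 and 15.1 in combination tumours, which overlapped (1.06 ± 0.34, limma adjusted p = 0.507). Between combination and anti-PD-1 the median was −0.16 (all genes −0.09), with 0 of 31 called by limma against 0.0% of all genes. At an unadjusted limma p under 0.05 there were 3 of 31, against 942 of all 15846 genes. For the interaction, how far the effect of ESK981 differed between mice with and without the antibody, limma called 0 of 31, against 0.0189% of all genes higher and 0.00631% lower. An unadjusted limma p under 0.05 was found for 20 of 31, against 2879 of all 15846 genes. mt-Nd6 had an interaction of 2.99 ± 0.84 (limma adjusted p = 0.137) and mt-Co1 one of 1.80 ± 0.55 (limma adjusted p = 0.15). Without the 3 tumours set apart on these values, 18 of 30 genes were called higher for the interaction, against 1.93% of all genes. With flow cell as a term 26 of 31 were, against 0.644% of all genes called higher and 28.4% lower.

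The ratio of mt-Nd6 to mt-Nd5, each in FPKM, was 0.711 (3L), 1.34 and 1.93 (3R) in vehicle tumours as lowest, median and highest. Its relation to ribosomal-RNA-like FPKM was not tested, and fragments of heavy-strand RNA across mt-Nd6 enter it if counting was not stranded. The ratio does not depend on the library total. It was 0.0932 (1R), 0.361 and 1.01 (3R) in ESK981 tumours, 0.0926 (4R), 0.450 and 0.689 (2R) in combination tumours and 0.297 (4L), 0.394 and 1.12 (4R) in anti-PD-1 tumours. All combination tumours were below all vehicle tumours, 6 of 8 ESK981 tumours were, with 3L and 3R inside the vehicle range, and 6 of 7 anti-PD-1 tumours were, with 4R inside it. Among the mice, each group of 5 treated mice lay wholly below the 5 vehicle mice.

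The mean log2 ratio over mice was 0.33 ± 0.33 (SD, n = 5) in vehicle, −1.78 ± 0.99 in ESK981, −1.49 ± 1.10 in combination and −1.17 ± 0.45 in anti-PD-1. Against vehicle it was lower by 4.31-fold in ESK981, 3.54-fold in combination and 2.83-fold in anti-PD-1, each with an exact two-sided permutation p = 0.00794, the smallest that 5 against 5 mice allow (0.0132 after Benjamini-Hochberg adjustment over the 5 comparisons). The groups share the same vehicle mice. Combination and ESK981 differed by 0.28 and combination and anti-PD-1 by −0.32 on the log2 scale, which is less than the spread between mice (exact permutation p = 0.675 for both). The sign of the first turned without ESK981 1R and 2R (−0.14), and that of the second without combination mouse 4 (0.13). On the flow cell of the treated tumours vehicle 5R had a ratio of 1.63, above all 23 treated tumours, and leaving out the 3 tumours that stood apart changed the 3 differences from vehicle to −2.07, −1.75 and −1.66 with the same exact permutation p.

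**Figure D4:**
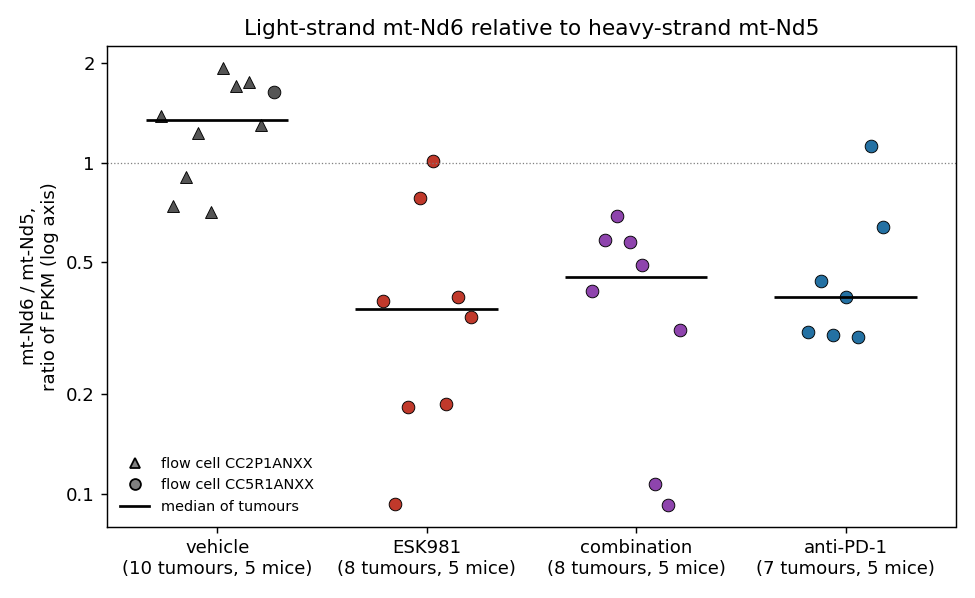
Ratio of mt-Nd6 to mt-Nd5 FPKM (log axis), 1 point per tumour by group, with the median as a line and the flow cell as the marker shape. Vehicle tumours range from 0.711 to 1.93, and the lowest tumours of the ESK981 and combination groups are near 0.093.

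Transfer RNAs gave few fragments in these libraries. Over all tumours they held 4853 of 11007481 mitochondrial fragments, or 0.0441%, and mt-Tw, mt-Tp and mt-Tm held 72.4% of the 4853. Nothing was counted on mt-Tf, mt-Td, mt-Tk, mt-Tg and mt-Tr in any tumour, and mt-Tv had 1 fragment in 1 tumour. These 6 genes did not reach the detection filter. By counting error only, nothing counted allows a gene at most 0.0618% of the transfer RNA fragments. For every transfer RNA gene that limit holds only if fragments that also reach a neighbouring gene were counted, which is not known here. mt-Td, mt-Tk, mt-Tg and mt-Tr lie between mt-Co1 and mt-Nd4l, genes with a copy on chromosome 1. If fragments that match both places were left out, that limit does not hold for them, and whether they were is not given. A tumour held 83, 154.5 and 840 transfer RNA fragments in vehicle as lowest, median and highest, 31, 63 and 143 in ESK981, 37, 74 and 209 in combination and 36, 64 and 715 in anti-PD-1.

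mt-Tw, the tryptophan transfer RNA, was at 37.1, 77.5 and 564 FPKM in vehicle and at 12.0, 18.9 and 50.4 in ESK981 tumours. ESK981 1L overlapped the lowest vehicle tumours, and the log2 fold change was −2.04 ± 0.48 (limma adjusted p = 0.0108). mt-Tp, the proline transfer RNA of the light strand, was at 15.2, 23.7 and 166 in vehicle and at 3.09, 5.50 and 12.0 in ESK981 tumours, without overlap (−2.46 ± 0.49, limma adjusted p = 0.00472). mt-Tm, the methionine transfer RNA, was at 4.33, 15.4 and 98.1 in vehicle and at 0.685, 2.76 and 5.82 in ESK981 tumours, with overlap at vehicle 4R (−2.50 ± 0.47, limma adjusted p = 0.00364). At these depths a few fragments set each value of mt-Tm, which had a median of 10 fragments per tumour, beside 42 for mt-Tw and 14 for mt-Tp.

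By strand, 6 of 8 heavy-strand and 4 of 8 light-strand transfer RNA genes tested fell in ESK981, with median log2 fold changes of −1.81 and −2.03. Of all genes tested 5.43% were lower. Of those that fell, mt-Ta, mt-Ty, mt-Th, mt-Tl2 and mt-Te had a median of 1 fragment per tumour, and mt-Ts2 of 0. At such counts FPKM depends on library size, with a median of 1.54e+07 fragments in vehicle and 2.47e+07 in ESK981 tumours. The light-strand share of transfer RNA fragments had a median of 29.9% in vehicle, 24.3% in ESK981, 22.8% in combination and 25.6% in anti-PD-1 tumours, and the groups overlapped. In the combination mt-Tw and mt-Tp differed from vehicle by −1.84 ± 0.48 and −2.02 ± 0.49 (limma adjusted p = 0.0869 and 0.0609), and in anti-PD-1 by −1.51 ± 0.48 and −2.02 ± 0.49 (limma adjusted p = 0.136 and 0.0546).

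Ribosomal RNAs of the organelle, which form its ribosome together with imported proteins, made up a small part of the mitochondrial fragments in most tumours. Their share was 0.374%, 0.559% and 3.54% in vehicle as lowest, median and highest, 0.938%, 1.32% and 1.86% in ESK981, and 0.275%, 0.401% and 1.23% in anti-PD-1. In the combination it was 0.327% and 0.537% as lowest and median, and 59.1% in tumour 5R. That tumour had 4084 FPKM of mt-Rnr1 and 3470 of mt-Rnr2, while the other 7 combination tumours were at 16.8 to 49.7 and 22.5 to 52.8. It also had the highest ribosomal-RNA-like FPKM, 500377, and the lowest mt-Co1 of its group.

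mt-Rnr2 was at 31.2 (4R), 78.4 and 419 (3L) FPKM in vehicle, 33.5, 45.1 and 64.8 in ESK981, 22.5, 35.2 and 3470 in combination and 16.7, 22.5 and 368 (4R) in anti-PD-1 tumours. ESK981 tumours lay inside the vehicle range, and all anti-PD-1 tumours but 4R lay below it. mt-Rnr2 differed from vehicle by −1.11 ± 0.91 in ESK981, −0.11 ± 0.91 in combination and −1.73 ± 0.91 in anti-PD-1 (limma adjusted p = 0.423, 0.975 and 0.423). mt-Rnr1 differed by −0.53 ± 1.01, 0.49 ± 1.01 and −1.51 ± 1.01 in the same order, and none passed. Between combination and anti-PD-1 the differences were 2.004 ± 1.01 for mt-Rnr1 and 1.63 ± 0.91 for mt-Rnr2, neither of which passed, and without the 3 tumours that stood apart they were 0.98 ± 0.41 and 0.69 ± 0.30. Without the same tumours mt-Rnr2 was called lower than vehicle in all 3 treated groups. It differed by −0.98 ± 0.29 in ESK981, −1.30 ± 0.30 in combination and −1.99 ± 0.29 in anti-PD-1 (limma adjusted p = 0.0159, 0.0168 and 0.000585). Combination 5R and anti-PD-1 4R, left out here, were the highest of their groups in mt-Rnr2, so these calls depend on that choice.

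Mitochondrial RNA was set against 2 library measures, the number of fragments and the ribosomal-RNA-like FPKM, over mice. Values within treated mice, which share a flow cell, are given beside the pooled ones. Over the 20 mice mt-Nd6 was lower where libraries held more fragments (Pearson r = −0.844, Spearman rho = −0.818, permutation p = 1e-05 and 4e-05, adjusted 0.00012 and 0.00048 over 12 relations). The first of these p is the smallest that the permutations can give. For mt-Co1 the values were r = −0.776 and rho = −0.681 (permutation p = 8e-05 and 0.00121, adjusted 0.00048 and 0.00484). Within the 15 treated mice r was −0.563 for mt-Nd6 (permutation p = 0.0299, adjusted 0.0718) and −0.411 for mt-Co1 (permutation p = 0.129, adjusted 0.172). Without vehicle mice 5 and 3, the farthest in fragments, r was −0.751 and −0.601 over 18 mice. Among treated mice without anti-PD-1 mouse 4 and ESK981 mouse 1 it was −0.365 and −0.127 (permutation p = 0.221 and 0.679).

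mt-Nd6 was higher where ribosomal-RNA-like FPKM was higher over the 20 mice (r = 0.616, rho = 0.722, permutation p = 0.00397 and 0.00049, adjusted 0.0119 and 0.00294). Within treated mice the values were r = 0.322 and rho = 0.589 (permutation p = 0.25 and 0.0231, adjusted 0.3 and 0.0462), and without combination mouse 5 and ESK981 mouse 2, the farthest on that measure, r was 0.868 over 18 mice and 0.706 over 13 treated mice. mt-Co1 had r = 0.427 and rho = 0.513 over all mice (permutation p = 0.06 and 0.0212, adjusted 0.103 and 0.0462), r = 0.017 within treated mice, and 0.687 and 0.385 without the same mice. For mt-Rnr2 r was 0.642 over all mice and 0.658 within treated mice (permutation p = 0.00124 and 0.0444, adjusted 0.00496 and 0.0887; rho = 0.478 and 0.0357), and without those 2 mice 0.519 over 18 mice (permutation p = 0.0284) and −0.0352 among treated mice. Within treated mice the relation was lost without those 2 mice. Combination mouse 5 was at 11.8 in log2 mt-Rnr2, and the other treated mice, ESK981 mouse 2 among them, at 4.11 to 6.58. With fragments, mt-Rnr2 had r = −0.398 and rho = −0.535 over all mice (permutation p = 0.0822 and 0.0161, adjusted 0.123 and 0.0462) and r = −0.289 within treated mice (permutation p = 0.281, adjusted 0.307). The part of depth and of ribosomal RNA removal in the group differences was not tested.

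**Figure D5:**
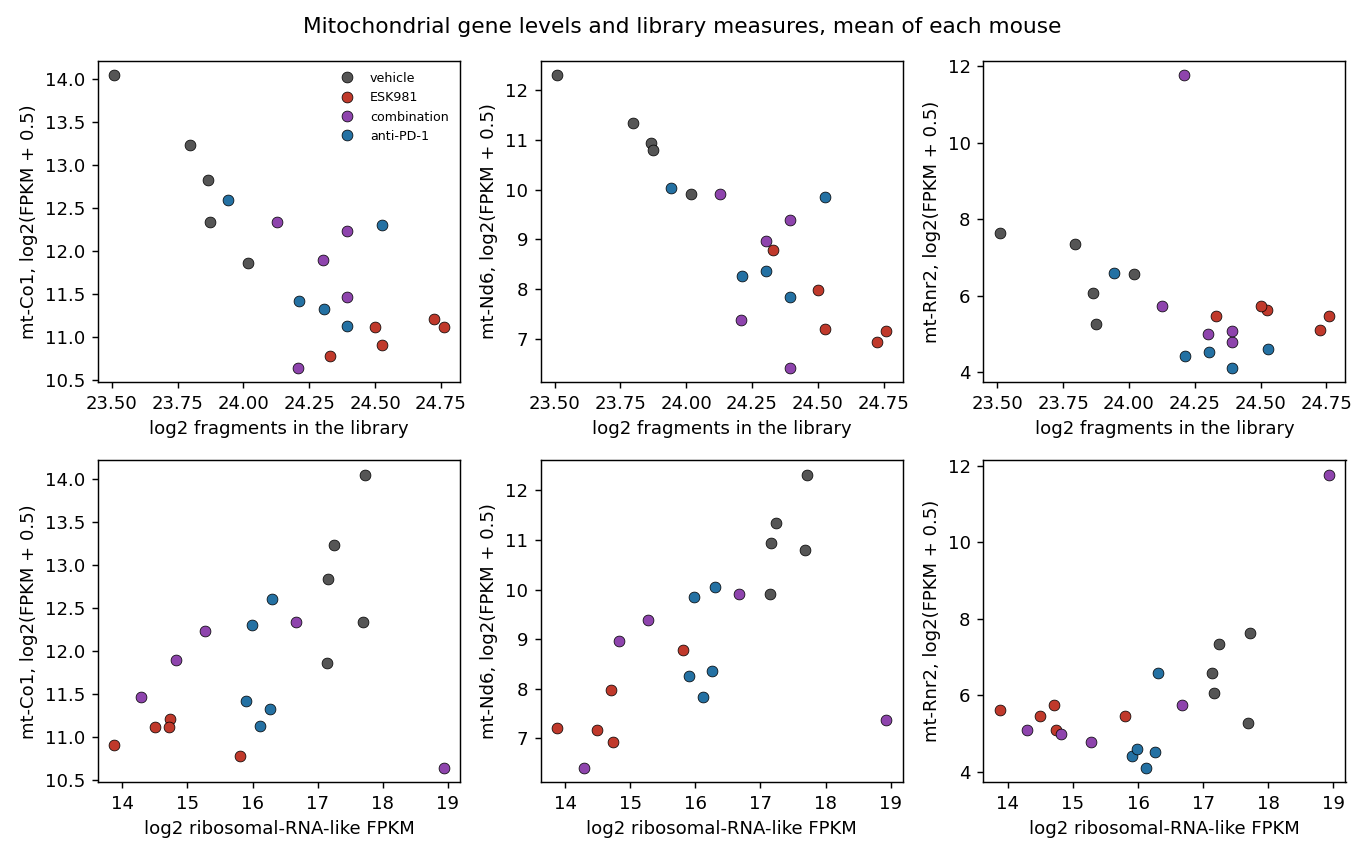
Log2(FPKM + 0.5) of mt-Co1, mt-Nd6 and mt-Rnr2 against log2 fragments per library (top) and log2 ribosomal-RNA-like FPKM (bottom), 1 point per mouse (mean of its tumours), coloured by group. Vehicle mouse 5 has the fewest fragments and the highest mt-Co1 and mt-Nd6, and combination mouse 5 lies alone at the right of the lower panels.

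Of a list of 53 nuclear genes that maintain and express the mitochondrial genome 51 were tested. In ESK981 against vehicle limma called 0 lower and 1 higher (all genes 5.43% lower and 8.95% higher), with a median log2 fold change of 0.21 beside 0.11 for all genes. The one was Pnpt1, which encodes the polynucleotide phosphorylase that degrades mitochondrial RNA. It was at 3.30, 8.62 and 10.7 FPKM in vehicle and at 9.77, 12.3 and 15.4 in ESK981 tumours, which overlapped (0.64 ± 0.21, limma adjusted p = 0.0477). The mitochondrial RNA polymerase Polrmt differed by −0.20 ± 0.18, the packaging and transcription factor Tfam by 0.21 ± 0.18, the initiation factor Tfb2m by 0.41 ± 0.21, the messenger-stabilising Lrpprc by 0.40 ± 0.17 and the helicase Twnk by 0.01 ± 0.17, none of which passed (limma adjusted p between 0.12 and 0.970). Tfam was at 1.89, 3.09 and 4.21 FPKM in vehicle and 2.84, 3.63 and 4.66 in ESK981 tumours, and the ranges overlapped. In the combination and in anti-PD-1 0 of the 51 were called against vehicle.

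From a list of 22 genes for mitochondrial mass and mitophagy, the removal of mitochondria by autophagy, 20 were tested and 2 rose in ESK981 against vehicle, with none lower and a median of 0.24. The share that rose is near the 8.95% of all genes that rose, so it is no result about the list. Fundc1, a mitophagy receptor of the outer membrane, was at 3.73, 4.47 and 5.12 FPKM in vehicle and 4.89, 7.34 and 8.99 in ESK981 tumours (0.62 ± 0.14, limma adjusted p = 0.00928). Dnm1l, the fission GTPase, was at 9.44, 14.3 and 17.5 and at 16.2, 21.2 and 23.0 (0.53 ± 0.16, limma adjusted p = 0.0372), and in both genes the ranges overlapped slightly. In the combination and in anti-PD-1 0 of the 20 were called.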

How the data were processed

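FPKM values of 48795 genes in 33 tumours were deposited by the authors. The submitters' processing notes name STAR, featureCounts and mm10. Their versions, the annotation, the use of strand and the handling of fragments with several matches were not given in the sources used here. FPKM times exon length (GENCODE M21) gave whole fragments in 100% of low values (tolerance 0.01).

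Log2(FPKM + 0.5) was averaged per mouse. Differences were tested with limma 3.58.1 (R 4.3.3) over 4 groups and 15846 genes with at least 0.5 FPKM in 5 or more tumours, and p was adjusted by Benjamini-Hochberg. limma was checked on simulated data. The replicate was the mouse, known from ear tags in the labels. Ratios were compared by exact permutation over mice, and relations by 100000 permutations. Copies were found with blastn 2.17.0.

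The members and lists were chosen with earlier results of these data known. Named with values were all protein and ribosomal RNA genes, transfer RNAs with at least 10 fragments in the median tumour, Polrmt, Tfam, Tfb2m, Lrpprc and Twnk, and called members of the lists. Gene copies named beside their mitochondrial partners were chosen after their values were seen.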

Additional observations from a re-analysis of the deposited data

Results flagged for a closer look

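In 5 of 24 groups of tumours 1 tumour lay farther from the others than Dixon's 95% limit allows, and chance gives about 1 in 20 such groups. The mitochondrial share of fragments was 11.49% in vehicle 5R and 6.641% in anti-PD-1 4R. The ratio of mt-Nd6 to mt-Nd5 FPKM was 1.119 in anti-PD-1 4R. The ratio of mt-Rnr2 to mt-Co1 FPKM was 2.176 in combination 5R and 0.02241 in anti-PD-1 4R. Vehicle 5R and anti-PD-1 4R had the fewest fragments of their groups, and all 3 tumours named here had the highest ribosomal-RNA-like FPKM of their groups. The part of these library measures in the values was not tested.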

How the results depend on the processing

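With no filter on low values 14 mitochondrial genes were called in ESK981 and 0 in the combination, where 22 and 1 were called with it. Of all genes 1.88% and 0.153% were lower without the filter, and 5.43% and 0.524% with it. Scaling by median-of-ratios factors gave 4 in the combination and 1 in anti-PD-1, and scaling to fragments outside mitochondrial and ribosomal-RNA-like genes gave 9 and 1. Of all genes 3.25% and 1.49% were lower with the first scaling, and 8.39% and 0.928% with the second. These scalings moved the median log2 fold change of all genes in ESK981 from 0.11 to 0.01 and −0.12. With flow cell as a term 27, 26 and 26 genes were called in the combination, anti-PD-1 and the interaction, where 5161, 4960 and 102 of all 15846 genes were called higher and 203, 101 and 4495 lower, and without combination 5R, vehicle 5R and anti-PD-1 4R the counts were 4, 10 and 18. Without those 3 tumours 1.55% and 1.83% of all genes were lower in the combination and anti-PD-1, and 1.93% higher for the interaction. Leaving out 1 mouse at a time gave 20 to 24 calls in ESK981, 0 to 4 in the combination and 0 to 3 in anti-PD-1. In the same order 428 to 1202, 53 to 140 and 16 to 113 of all genes were lower. The cause of these changes was not tested, and the 3 tumours left out together were chosen on their mitochondrial RNA. Calls with flow cell as a term rest on vehicle 5R, and that fit took tumours of the same mouse as independent. The mt-Nd6 to mt-Nd5 difference between combination and ESK981 turned to −0.14 without ESK981 1R and 2R, an alternative chosen after seeing the data. That between combination and anti-PD-1 ranged from −0.56 to 0.13 with 1 mouse left out. Within treated mice r with fragments was −0.411 for mt-Co1 and −0.563 for mt-Nd6, and −0.127 and −0.365 without the 2 farthest mice. With ribosomal-RNA-like FPKM r was 0.687 for mt-Co1 over 18 mice, 0.322 for mt-Nd6 within treated mice, and 0.658 for mt-Rnr2 within treated mice, which turned to −0.0352 without the 2 farthest. No paired analysis was possible because the groups share no replicate numbers in the labels, and ear tags pair only tumours of the same mouse. Transfer RNA values rest on few fragments, with a median of 10 per tumour for mt-Tm. For mt-Ta, mt-Ty, mt-Th, mt-Tl2 and mt-Te, all called in ESK981, the median was 1, and for mt-Ts2, also called, 0.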

Other observations

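In 13 mice both flanks gave a tumour, and the mitochondrial share of fragments was higher on the right in 9 and on the left in 4. The fold between flanks had a median of 1.41 and ranged from 1.01 to 6.79. It was over 2 in 4 mice. Anti-PD-1 mouse 4 had 0.979% on the left and 6.64% on the right, vehicle mouse 5 had 2.81% and 11.5%, vehicle mouse 1 had 0.731% and 2.65%, and combination mouse 1 had 0.812% and 2.47%. The ratio of mt-Nd6 to mt-Nd5 differed most between flanks in ESK981 mouse 1, by 4.09-fold. These are values of single mice, and no test was made of flank.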
